A study of Bos taurus with 12 samples.

Results

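The miRNAs bta-miR-10a, bta-miR-10b, bta-miR-196a and bta-miR-196b are encoded inside the bovine HOX gene clusters and were followed through small RNA libraries of plasma extracellular vesicles (EVs), membrane-bound particles that cells release into the blood. They are 4 of the 783 miRNAs of the deposited table. Their rows were chosen by name and also on measured values, since earlier results had shown miR-196 high in superstimulated high responders and miR-10 stable. The differences that the choice rests on are therefore described here without a test. Blood was taken from 6 estrus-synchronized Charolais- and Limousin-cross heifers, on Day 7 of an unstimulated (U) cycle and again on Day 7 of the following cycle, in which they had been superstimulated (S) with follicle-stimulating hormone and prostaglandin F2α and inseminated. Of these heifers, 3 had a high (H) and 3 a low (L) ovulatory response, picked from the ends of a larger herd by their number of corpora lutea. The combinations UL, UH, SL and SH were thus covered by 3 libraries each. The U sample always came first, so the superstimulation, the insemination and the order of the cycles cannot be told apart. A library is named by its group and number, and libraries that share a response letter and a number were taken as 1 heifer (UH1 and SH1 as heifer H1), which the labels do not state.

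HOX genes are transcription factors that lay out the body axis in the embryo and stay active in a region-specific way in many adult tissues. The miR-10 and miR-196 genes lie between them, are transcribed with them in a regional pattern, and are known to repress HOX messages. A miRNA finds its targets mainly through its seed, bases 2 to 8. In the RefSeq annotation (assembly ARS-UCD2.0), the gene of miR-10a lies between HOXB5 and HOXB4 and that of miR-10b between HOXD3 and HOXD8, within the HOXD4 record. The gene of miR-196b lies between HOXA10 and HOXA9. A pair of genes gives miR-196a, and these lie within the HOXB9 record and between HOXC9 and HOXC10. The table has a single row for mature miR-196a, so its reads cannot be divided between the HOXB and HOXC clusters. Coordinates are not given, because that assembly is not the build of the files (UMD3.1).

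The mature sequences are shown as deposited, in DNA letters and 5′ to 3′, to make plain how little separates the members of a pair. The seed is in capitals.
bta-miR-10a: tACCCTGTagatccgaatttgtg
bta-miR-10b: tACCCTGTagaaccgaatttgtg
bta-miR-196a: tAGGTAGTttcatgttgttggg
bta-miR-196b: tAGGTAGTttcctgttgttggga
Counted from 1 at the 5′ end, miR-10a and miR-10b differed by T12A, and miR-196a and miR-196b by A12C, where the base of the a form comes first. Both changes lay at position 12, outside the seed, and miR-196b was also 23 bases long against 22 for miR-196a. Each of the 2 seeds occurred in 2 rows of the table, which were the members themselves. Reads of a pair were thus told apart by a single inner base.

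The libraries held between 21466 and 77433 reads of known miRNAs, with a median of 41190. SH2 was the smallest library and SH3 the largest, so that 3 reads stood for 6.03 normalized reads in SH2 and for 1.81 in SH3. All levels below are normalized reads, that is, reads scaled with TMM factors (trimmed mean of M-values, which evens out depth and composition) to the mean depth. The mature forms are 22 or 23 bases long, so their levels were not divided by length. How well each sequence enters a library was not measured, so different miRNAs are compared here as reads only. In EVs of plasma, fewer vesicles of one origin and less of a miRNA per vesicle cannot be told apart.

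Both miR-10 forms were present in all 12 libraries at a moderate level. In the UL libraries, miR-10a was at 78.3, 103.8 and 87.9 normalized reads for numbers 1, 2 and 3. In UH it was at 123.3, 118.8 and 56.4. In SL it was at 86.0, 78.8 and 98.9, and in SH at 80.6, 90.4 and 60.8. The lowest and the highest miR-10a library were thus both UH libraries, and the 4 groups overlapped. Group means were 90.0 ± 12.9 (SD, n = 3) in UL, 99.5 ± 37.4 in UH, 87.9 ± 10.2 in SL, and for SH 77.3 ± 15.1. Ordered by mean (UH, UL, SL, SH), neighbours differed by less than the larger of their SDs.

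miR-10b, the more abundant form, was at 246.1, 364.8 and 307.3 normalized reads in UL and at 293.7, 371.4 and 199.3 in UH. It was at 256.6, 222.6 and 247.3 in SL and at 231.0, 198.9 and 121.1 in SH. The highest value was that of UH2 and the lowest that of SH3, 3.07 times apart. Means were 306.1 ± 59.4 (SD, n = 3) in UL, 288.1 ± 86.2 in UH, 242.2 ± 17.6 in SL, and for SH 183.7 ± 56.5. Libraries of neighbouring groups in this order overlapped, but every SH library was below every UL library. SH and UL differ in both cycle and response, and their difference was not tested. The share of all miRNAs separated in this way was not counted, so nothing is read from it.

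miR-196a was scarce in both unstimulated groups. It was at 13.8, 10.8 and 2.0 normalized reads in UL, from 15, 12 and 2 reads. In UH it was at 10.3, 5.0 and 11.3, from 7, 7 and 15 reads. In SL it was at 62.6, 3.9 and 18.5, so SL1 was well above the unstimulated range, SL3 was above it and SL2 within it. In SH it was at 182.6, 20.1 and 53.6, from 136, 10 and 89 reads, and all SH libraries were above all unstimulated ones. Means were 8.9 ± 6.2 (SD, n = 3) in UL, 8.8 ± 3.4 in UH, 28.4 ± 30.6 in SL, and for SH 85.4 ± 85.8. The SD of the stimulated groups was as large as their mean. In SH1 miR-196a was the 31st most abundant miRNA, while its lowest rank in any library was 160.

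miR-196b was at 5.5, 7.2 and 4.0 normalized reads in UL. In UH it was at 4.4, 0.0 and 21.8, from 3, 0 and 29 reads. The 0 reads in UH2 allow a level of up to 40.5 per 1000000 known miRNA reads (3 reads, counting error only). In SL it was at 28.2, 1.0 and 21.6, and in SH at 68.5, 10.0 and 32.5. UH3 stood out among the unstimulated libraries, with a level above that of SH2. Means were 5.6 ± 1.6 (SD, n = 3) in UL, 8.7 ± 11.5 in UH, 17.0 ± 14.2 in SL, and for SH 37.0 ± 29.5.

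**Figure D1:**
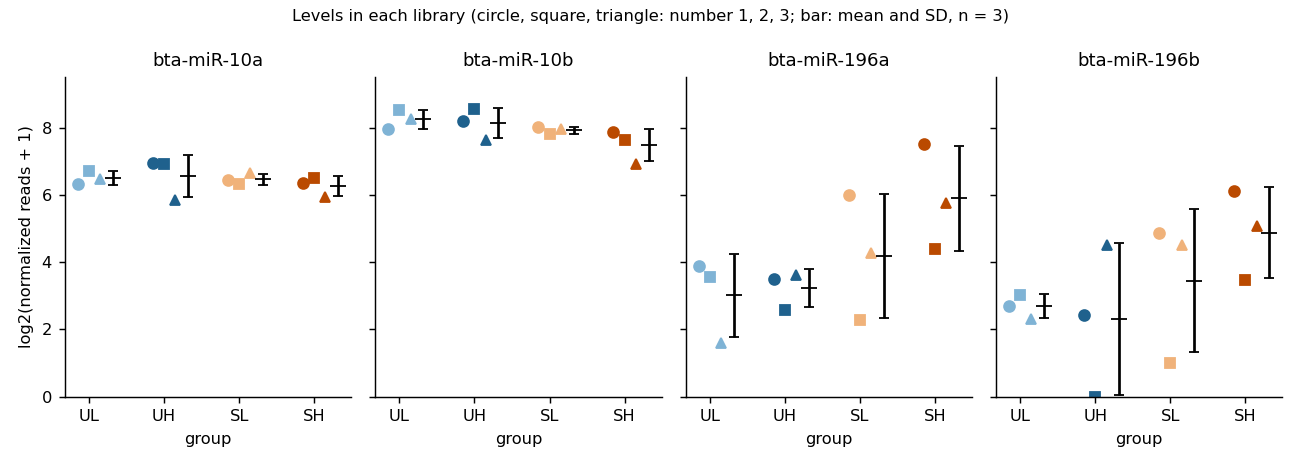
Levels of the 4 miRNAs in each of the 12 libraries, as log2(normalized reads + 1) by group, with a symbol for each library number and the mean and SD of the group (n = 3) beside the points. The miR-10 panels vary less than those of miR-196, with SH3 lowest for miR-10b. miR-196a in SH (20.1 to 182.6 normalized reads) lies above all UL and UH libraries. Its SL1 and SL3 values also lie above them, and its SL2 value sits among them.

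Before superstimulation, no difference in miR-196 between high and low responders was detected. By limma on log2(normalized reads + 1), over miRNAs read at least once in 2 or more libraries of either group, miR-196a differed between UH and UL by 0.22 on the log2 scale (SE 0.73, 95% interval -1.31 to 1.76). The limma P was 0.979 after Benjamini-Hochberg adjustment. For miR-196b the difference was -0.37 (SE 0.94, 95% interval -2.36 to 1.62), with limma adjusted P = 0.969. The ratio of the plain means of miR-196b was 1.57, in the opposite direction, with 29 of the 32 UH reads in UH3. With the thresholds of a log2 fold change of at least 1 in size and an unadjusted P of at most 0.05, limma called 0 of these 2 miRNAs, against 6 of all 227 tested (2.64%). At an unadjusted P of at most 0.05 alone, the count was also 0 of 2. Leaving out 1 library turned the direction of both, to -0.50 for miR-196a without UL3 and to 0.79 for miR-196b without UH2. The intervals are wide enough to include more than a doubling in either direction.

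In low responders, miR-196 was on average higher after superstimulation, but not beyond the spread between libraries. miR-196a differed between SL and UL by 1.19 on the log2 scale (SE 0.92, 95% interval -0.85 to 3.22), with limma adjusted P = 0.702. miR-196b differed by 0.77 (SE 0.94, 95% interval -1.32 to 2.85), with limma adjusted P = 0.802. limma called 0 of the 2, against 5 of 214 tested (2.34%), and 0 of the 2 had an unadjusted P of at most 0.05. This outcome turned on single libraries. Without SL2, the differences were 2.13 for miR-196a and 2.0 for miR-196b, past both thresholds, while without SL1 they were 0.29 and 0.06.

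In high responders, the contrast for which the miRNAs were chosen, miR-196a was higher by 2.67 on the log2 scale in SH than in UH (SE 0.72), and miR-196b by 2.57 (SE 0.98). The plain means differed 9.66-fold and 4.24-fold. Every SH library was above every UH library for miR-196a, as for 4 of all 212 miRNAs tested (1.89%), while the miR-196b libraries overlapped through UH3. A log2 difference of at least 1 was reached by both, and by 19 of 212 miRNAs in all (8.96%). Leaving out a library at a time, the miR-196a difference ranged from 1.85 without SH1 to 3.41 without SH2, and that of miR-196b from 1.41 without UH2 to 3.67 without UH3. The miR-10 differences between SH and UH were -0.30 (SE 0.47) for miR-10a and -0.65 (SE 0.43) for miR-10b, where the median of all miRNAs was -0.14. Without UH1 and without UH3 the miR-10a difference was -0.10 and -0.66, and that of miR-10b was -0.38 without SH3 and -0.89 without UH3. These values were used in the choice and nothing is read from them.

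Between the responder groups after superstimulation, miR-196a was higher by 1.70 on the log2 scale in SH than in SL (SE 0.95) and miR-196b by 1.43 (SE 1.03). A log2 difference of at least 1 was found for 23 of 201 miRNAs (11.4%). The libraries of SH and SL overlapped for all 4 members, while 8 of 201 miRNAs (3.98%) had every SH library above every SL library. Without SL2 the differences came to 0.76 for miR-196a and 0.20 for miR-196b, and without SL1 to 2.60 and 2.14. miR-10a differed by -0.20 (SE 0.35) and miR-10b by -0.45 (SE 0.35), with a median of -0.08 over all miRNAs.

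Heifer by heifer, with the pairing taken from the library numbers, both miR-196 forms were higher in the S than in the U cycle in 5 of 6 heifers, and lower in L2. The rise in H1, H2 and H3 belongs to the contrast used in the choice, and nothing is read from it. Only the low responders lie outside it, with L1 and L3 higher in S and L2 lower. The share of all miRNAs that rose in as many heifers was not counted. The summed miR-196 level of heifer H1 was 14.7 normalized reads in U and 251.1 in S, a ratio of 17.1 (95% counting interval 9.09 to 36.3). In H2 it was 5.0 and 30.1, a ratio of 6.05 (2.32 to 17.5). In H3 it was 33.1 and 86.1, a ratio of 2.6 (1.85 to 3.74). H3 had the highest level before superstimulation and the smallest ratio of the high responders. Among low responders, L1 had 19.4 and 90.9, a ratio of 4.69 (2.86 to 8.03), and L3 had 5.9 and 40.2, a ratio of 6.78 (2.73 to 20.1). L2 had 18.1 and 4.9, a ratio of 0.273 (0.08 to 0.749), from 20 and 5 reads. The ratios of L1 and L3 thus lay between those of H3 and H1. These directions were the same in all 6 heifers with median-of-ratios size factors, with known miRNA reads alone and with the deposited values.

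The summed miR-10 level was lower in S than in U in 5 of 6 heifers, all 3 high responders among them, with ratios of 0.747 in H1, 0.59 in H2, 0.712 in H3, 0.643 in L2 and 0.876 in L3. In L1 the ratio was 1.06. miR-10 was chosen for being stable, so these ratios describe the choice and nothing is read from them. The share of all miRNAs that were lower in as many heifers was not counted. miR-10b was lower in S in 5 of 6 heifers, with ratios down to 0.536 in H2, although on the scale of the deposited values H1 was slightly higher in S. miR-10a was lower in 3 heifers and higher in 3, and with known miRNA reads alone or the deposited values lower in 4. The sum kept its direction in all 6 heifers under the 4 scalings.

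**Figure D2:**
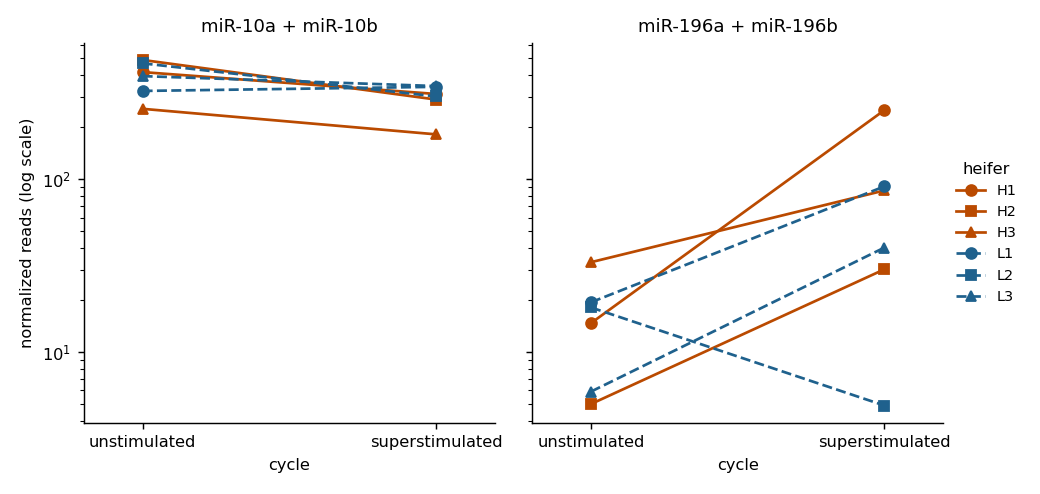
Summed normalized reads of miR-10a and miR-10b (left) and of miR-196a and miR-196b (right) in the unstimulated and superstimulated cycle, on a log scale, with a line for each of the 6 heifers (solid for H, dashed for L). miR-10 stays between 181.9 and 490.2 and is lower in S in 5 of 6 heifers under each of 4 scalings, while miR-196 is higher in S in all heifers but L2.

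Ratios of reads within a library need no scaling between libraries. For each 100 miR-10 reads, UL libraries held 5.97, 3.85 and 1.5 miR-196 reads, and UH libraries 3.52, 1.02 and 12.9. SL libraries held 26.5, 1.63 and 11.6, and SH libraries 80.6, 10.4 and 47.4. SH2 was therefore below UH3, whose 95% counting intervals were 5.68 to 17.8 and 9.23 to 17.8. Between U and S this ratio was 22.9 times higher in H1, 10.3 times in H2, 3.66 times in H3, 4.45 times in L1 and 7.74 times in L3, and in L2 it was 0.424 times its U value. The means were 3.77 ± 2.24 (SD, n = 3) in UL, 5.81 ± 6.26 in UH, 13.2 ± 12.5 in SL, and for SH 46.1 ± 35.1. This ratio sets miR-196 against miR-10, the contrast used in the choice, so nothing is read from its SH values. In H1, H2 and H3, summed miR-10 was also lower in S (0.747, 0.59 and 0.712 times its U level). The ratio therefore rose more in these heifers than miR-196 alone.

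Within the miR-10 pair, miR-10b gave most reads in every library. Its share was 75.9, 77.8 and 77.8% in UL, 70.4, 75.8 and 77.9% in UH, 74.9, 73.9 and 71.4% in SL, and 74.1, 68.8 and 66.6% in SH. UH and UL overlapped, with a difference of -2.44 percentage points (two-sided exact permutation test, p = 0.6, adjusted over 4 share tests p = 0.6). All 3 SL libraries were below all UL libraries, with a difference of -3.75 points. Its exact permutation p was 0.1, the smallest that 3 against 3 libraries can give, and 0.4 after adjustment, and this comparison was added after the values were seen. The share was lower in S than in U in 5 of 6 heifers, with the largest difference, -11.4 points, in H3, while in H1 it was 3.72 points higher. In most heifers, the 95% exact binomial interval of each library was wider than the difference between the cycles. In H1 the intervals were 64.7 to 75.7% in U and 68.0 to 79.6% in S. In H3 the intervals of U (73.2 to 82.2%) and S (60.9 to 71.9%) did not overlap.

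Within the miR-196 pair, miR-196a gave the larger part of the reads in most libraries, on far fewer reads. Its share was 71.4, 60.0 and 33.3% in UL, 70.0, 100 and 34.1% in UH, 68.9, 80.0 and 46.2% in SL, and 72.7, 66.7 and 62.2% in SH. UL3, UH3 and SL3 had more miR-196b than miR-196a reads. The best measured of these was UH3, with 15 of 44 reads from miR-196a (95% exact binomial interval 20.5 to 49.9%), and SH1 had 136 of 187 (65.7 to 79.0%). UH differed from UL by 13.1 points (exact permutation p = 0.6, adjusted p = 0.6) and SL from UL by 10.1 points (exact permutation p = 0.6, adjusted p = 0.6), where 3 against 3 libraries cannot give a p below 0.1. The direction between UH and UL was not settled, since the reads summed over each group gave -14.2 points and leaving out UH2, with 100% from 7 reads, gave -2.88.

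**Figure D3:**
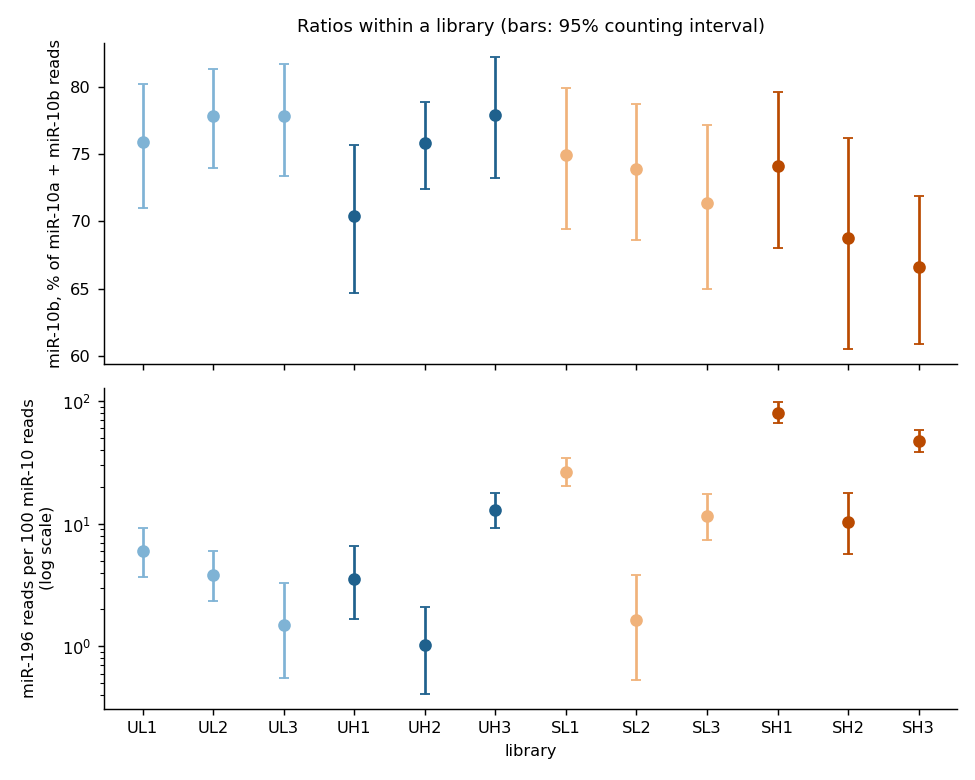
Share of miR-10b among miR-10 reads in percent (top, axis not from 0) and miR-196 reads per 100 miR-10 reads on a log scale (bottom) in each library, with 95% counting intervals and colours for the groups. The miR-10b share stays between 66.6 and 77.9%, while the miR-196 to miR-10 ratio runs from 1.02 in UH2 to 80.6 in SH1.

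The families also differed in how much they varied among all libraries. Over the 107 miRNAs with a mean of at least 10 normalized reads, the SD of log2(normalized reads + 1) over the 12 libraries had a median of 0.571 and a range of 0.183 to 2.0. It was 0.336 for miR-10a, the 13th smallest, and 0.436 for miR-10b, the 35th smallest. It was 1.68 for miR-196a and 1.78 for miR-196b, at ranks 104 and 106. Scarce miRNAs vary more through counting alone, so each member was set beside the 20 miRNAs closest to it in level. miR-10a varied less than 18 of its 20 neighbours and miR-10b less than 12 of 20, and both miR-196 forms varied more than all 20 of theirs. These ranks describe the property by which the miRNAs were chosen.

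**Figure D4:**
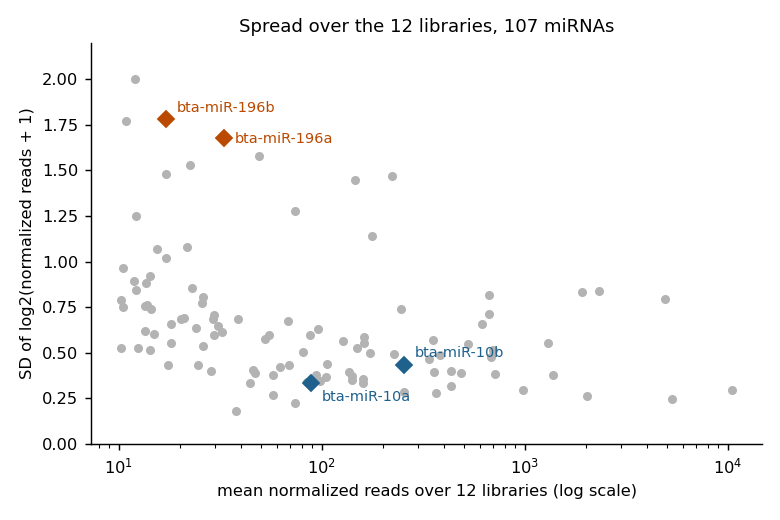
SD of log2(normalized reads + 1) over the 12 libraries against the mean normalized reads on a log scale, for 107 miRNAs, with the 4 members as diamonds. miR-10a (0.336) and miR-10b (0.436) lie below the median of 0.571, and miR-196a (1.68) and miR-196b (1.78) near the top.

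The pattern of each member over the 12 libraries was compared with that of all other miRNAs. Likeness was measured as the root mean square difference of log2 levels, each centred on its own mean, over 12 libraries that come from 6 heifers and share their depth factors. It was 0.26 between miR-10a and miR-10b, 0.93 between miR-196a and miR-196b, and 1.73 to 1.96 between a miR-10 and a miR-196 form. This measure keeps the size of the variation, so the last values restate the small spread of miR-10 and the large spread of miR-196 by which they were chosen. The 5 miRNAs nearest to miR-10a were let-7a-5p, miR-26a, miR-10b, miR-3432 and let-7b, and the nearest to miR-10b were miR-10a, let-7a-5p, miR-3432, miR-26a and let-7f. These are abundant miRNAs that varied little. The nearest to both miR-196 forms was miR-199a-3p, at 0.67 from miR-196a and 0.74 from miR-196b, followed by the other form and by let-7c. miR-199a-5p was in both lists, miR-125b was in that of miR-196a and miR-148a in that of miR-196b. Ranked by Spearman's rho, miR-199a-3p stayed the nearest of both. For each miR-196 form 4 of 5 names were shared, but 2 of 5 for each miR-10 form. Both rankings used the same 12 libraries, with the SH libraries of the choice among them. A miRNA high in the same SH libraries ranks near miR-196 in either, so the rankings are not independent of the choice.

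miR-199a-3p, which is best known from mesenchymal cells such as fibroblasts, was at 86.6, 66.8 and 54.3 normalized reads in UL and at 67.5, 35.6 and 226.3 in UH. It was at 450.7, 60.1 and 122.1 in SL and at 996.3, 86.4 and 415.7 in SH. As for miR-196b, SH1, SL1 and SH3 were the highest libraries, and UH3 was the highest before superstimulation. The 6 mesenchymal miRNAs listed (miR-143, miR-145, miR-214 and the miR-199 forms, 6 of 6 with reads) summed to 98.4 to 187.1 in UL, 105.3 to 284.2 in UH, 106.4 to 552.6 in SL, and for SH 92.4 to 1250.1. Their part in the miR-196 result was not tested. Between U and S, the mesenchymal sum was 126.3 and 1250.1 in H1, 284.2 and 753.0 in H3, 187.1 and 552.6 in L1 and 107.7 and 166.9 in L3, higher in S as summed miR-196 was. In H2 it was 105.3 and 92.4, with miR-199a-3p at 35.6 and 86.4, and in L2, where miR-196 was lower in S, it was 98.4 and 106.4. miR-199a-3p alone, already picked as nearest to miR-196, gave 996.3 of the 1250.1 in SH1. In SL1 it gave 450.7 of the 552.6, but 86.6 of the 187.1 in UL1. Between SH and UH, 4 of the 6 listed had a positive log2 difference, against 92 of all 212 miRNAs tested. miR-145 (-0.63) and miR-214 (-0.41) went the other way, so the list did not move as a set.

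**Figure D5:**
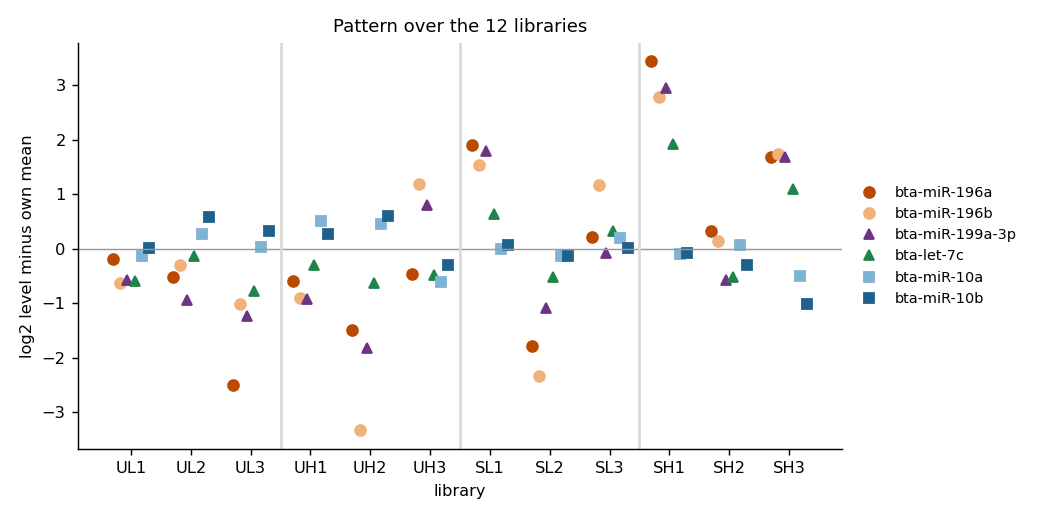
Log2(normalized reads + 1) minus the mean over the 12 libraries of the same miRNA, for the 4 members, miR-199a-3p and let-7c, by library. Both miR-196 forms and miR-199a-3p are highest in SH1 and low in UH2 and SL2, whereas miR-10a and miR-10b stay closer to 0, lowest for miR-10b in SH3.

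Markers of other sources of plasma EVs are given beside this. The erythroid miRNAs miR-451, miR-486 and miR-144 summed to 1189.0 to 2622.3 in UL, 1121.3 to 2756.4 in UH, 982.4 to 2260.8 in SL, and for SH 1757.7 to 8362.1, where SH3 was the top. These sums were nearly all miR-486, with an SH mean of 4091.8, beside 30.8 for miR-451 and 1.5 for miR-144. The 2 endothelial forms of miR-126 summed to 4059.3 to 7000.9 in UL, 4655.7 to 11879.5 in UH, 3523.1 to 6413.0 in SL, and for SH 1686.2 to 7665.3. In SH the lowest sums were in SH3 and SH1, which had the highest miR-196 of that group. The lowest sums of UL, UH and SL were in UL1, UH3 and SL1, which likewise had the highest summed miR-196 of their groups. The part of the erythroid and endothelial miRNAs in the miR-196 result was not tested either. The 6 leukocyte miRNAs summed to 2775.8 to 3095.1 in UL, 2532.9 to 4397.4 in UH, 3670.4 to 5099.9 in SL, and for SH 2748.7 to 4020.5. Every SL sum was thus above every UL sum, and 6 of 6 leukocyte miRNAs had a positive log2 difference between SL and UL. Of all miRNAs tested, 89 of 214 had a positive difference. An unadjusted limma P of at most 0.05 was found for 3 of 6, against 9 of 214. Of the leukocyte miRNAs 0 of 6 were called, against 5 of 214. The part of leukocytes in the SL and UL values of miR-196 was not tested. Liver miR-122 ranged from 48.2 to 641.0, and the 4 muscle miRNAs from 37.7 to 1706.1, with the highest sum in UL1. All miRNAs of these lists had reads in at least 1 library.

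Relatives in sequence were looked at for the same pattern. miR-99a-5p, miR-99b and miR-100 belong to the same ancient family as miR-10, and share the first 4 seed bases with it (ACCC). The let-7 family, regulators of developmental timing, shares part of its seed with miR-196, offset by 1 base.
bta-miR-100: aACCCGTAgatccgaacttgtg
bta-miR-99b: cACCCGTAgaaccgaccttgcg
bta-let-7c: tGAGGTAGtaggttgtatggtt
miR-10a shares a run of 11 bases (gtagatccgaa) with miR-100, and miR-10b a run of 10 bases (gtagaaccga) with miR-99b. In both runs the shared letters begin at base 7 of miR-10 and base 6 of the relative. The miR-196 and let-7 seeds share the 6 bases aggtag, at position 2 of miR-196 and 3 of let-7. The let-7 seed occurred in 9 rows of the table.

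The 3 miR-99/100 miRNAs summed to 107.8 to 146.3 normalized reads in UL, 91.7 to 167.2 in UH, 121.2 to 153.0 in SL, and for SH 118.2 to 160.8. limma called 0 of 3 in each of the 4 comparisons, and 0 of 3 had an unadjusted P of at most 0.05. Of all miRNAs tested, 12 of 212 (5.66%) were called between SH and UH and 11 of 201 (5.47%) between SH and SL. The miR-99/100 median log2 differences were -0.16 for UH against UL, 0.24 for SL against UL, 0.01 for SH against UH and -0.06 for SH against SL, beside 0.04, -0.07, -0.14 and -0.08 over all miRNAs tested. Of the 9 let-7 members, 0 were called in 3 of the comparisons and 1 of 9 between SH and UH. This was let-7c, at 1281.8, 1016.0 and 1130.8 in UH and 5986.1, 1101.1 and 3384.4 in SH. It was higher by 1.31 on the log2 scale (SE 0.55, limma adjusted P = 0.736), although SH2 lay within the UH range. As let-7c was already among the nearest to both miR-196 forms over the same libraries, this call is not independent of that pattern. Neither family had an adjusted limma P below 0.05 in any comparison, and this held for all miRNAs tested.

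The remaining miRNA of the HOX clusters in the table, miR-615 of the HOXC cluster, had 0 reads in 12 of 12 libraries, which allows up to 38.7 per 1000000 known miRNA reads in the largest library and 140.0 in the smallest. Over all 12 libraries, miR-10b had 3036 reads, miR-10a 1035, miR-196a 360 and miR-196b 198.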

How the data were processed

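Libraries of EV-RNA from blood plasma were made with a kit that adds unique molecular identifiers (UMIs). Per the submitters' processing notes and the methods, the authors trimmed and collapsed reads by UMI (Cutadapt), aligned them to UMD3.1 (Bowtie2 2.2.2) and annotated perfect matches with miRBase release 21. The deposited values are a score: tags per 1000000 mapped reads, which the authors cut to whole numbers, without TMM scaling. Since the value of 1 read (4.48 to 7.93 in a library) is a fixed step, whole reads were calculated back, which gave again 2365 of 2365 values above 0. The deposited unit is not a count, so a log scale test was used and no count test was run. The paper also lists raw read counts of the expressed miRNAs, but the reads used here are those calculated back. The number of value columns left unused was 0.

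Reads were scaled with TMM factors over the 12 libraries to the mean depth. limma 3.58.1 (R 4.3.3; lmFit, eBayes with trend, two-sided) was fitted to log2(normalized reads + 1) of the 2 groups compared, over all miRNAs read at least once in 2 or more libraries of either group. Benjamini-Hochberg adjustment was over all of them. Shares were compared by exact permutation of the libraries, and counting intervals are exact at 95% and cover counting error only. The fit was tested on simulated data. Libraries of a group were from different heifers and differed by more than sampling noise. The 4 members, their 5 nearest miRNAs in pattern (mean of at least 10 normalized reads), rows of the HOX cluster miRNAs, sequence relatives and marker lists were named by rule, and members and lists were chosen with earlier results of these data known. Samples were grouped by their labels.

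Same-numbered U and S libraries were paired on the assumption that a number marks 1 heifer. Each heifer was bled in its U and its S cycle, but the labels do not tie numbers to animals, and 2 of 6 pairs were above 0.1 in the following check. The correlation of their deviations from the group means over 238 miRNAs was 0.0512, 0.212 and 0.131 for H1, H2 and H3 and 0.0982, 0.0557 and -0.0473 for L1, L2 and L3. Between H and L groups only the number is shared. Alternatives were other scalings, filters, pseudocounts, all 4 groups in the fit, no trend, the replicate block and leaving out each library. Tables and plots were made in Python 3.11.15 (scipy 1.17.1, pandas 2.3.3, matplotlib 3.10.9).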

Additional observations from a re-analysis of the deposited data

How the results depend on the processing

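Under 10 alternatives other than leaving out a library, the miR-196a and miR-196b differences kept their direction and their side of the thresholds in UH vs. UL and SL vs. UL (9 for miR-196b in UH vs. UL, which the filter of 10 reads removes). With the replicate block (paired libraries), SL vs. UL was again 1.19 for miR-196a and 0.77 for miR-196b, and the block changed no call of a member. Leaving out each library, UH vs. UL ranged from -0.50 to 0.66 for miR-196a (negative without UL3) and from -1.47 to 0.79 for miR-196b (positive without UH2), and SL vs. UL from 0.29 to 2.13 and from 0.06 to 2.0. The miR-196a share UH minus UL ranged from -2.88 to 30.1 points and was -14.2 from summed reads, where UH3 gave 44 of 61 reads, and SL minus UL ranged from -0.69 (without UL3) to 19.5. The miR-10b share ranged from -4.06 to -0.297 and from -4.51 to -2.76.

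Of all miRNAs in UH vs. UL, limma called 6, but 10 without a filter, 2 with at least 10 reads, and 10 without UL3 or UH2. In SL vs. UL it called 5, but 0 with at least 10 reads, 3 with a pseudocount of 2, 3 with the replicate block, 10 with all 4 groups in the fit, and 7 to 15 without a library. Scaling by the deposited values moved the median of all miRNAs by 0.13 (log2) in UH vs. UL and 0.15 in SH vs. SL, and known reads without TMM by -0.14 in SH vs. SL. Depth limits miR-196, with 10 or fewer reads of both forms together in UL3, UH1, UH2 and SL2, as does the spread between 3 heifers per group.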
